A study of Arabidopsis thaliana with 2 samples.

Results

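EDS1, PAD4 and SAG101 and the helper NLRs of the ADR1 and NRG1 groups form the shared node through which many plant immune receptors signal. Their 9 genes were taken by gene identifier from the 23147 genes listed in either library, and all 9 were listed in both. The members were EDS1, EDS1B, PAD4 and SAG101 (the EDS1 family), ADR1, ADR1-L1 and ADR1-L2 (the ADR1 group), and NRG1.1 and NRG1.2 (the NRG1 group). RNA was sequenced from untreated Arabidopsis thaliana rosettes (Col-0) collected at 28 days, with 1 library per genotype. The first genotype was wild type. The second, PBL19 C3A, was a pbl19 null mutant that expressed PBL19 with cysteine 3 changed to alanine, under the PBL19 promoter and fused to GFP and HA tags. PBL19 is a receptor-like cytoplasmic kinase, and the study is concerned with how the place of this kinase in the cell relates to immunity that depends on EDS1. The sources used here do not give the number of plants in each library or of independent transgenic lines. A line carrying the unchanged transgene was not analysed here. The null allele, the altered cysteine, the tags and the amount of PBL19 transcript therefore cannot be told apart.

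EDS1, PAD4 and SAG101 are related proteins with a lipase-like fold. EDS1 pairs with either PAD4 or SAG101. Receptors with a TIR domain make small nucleotide signals that bind these pairs, and the bound pairs then engage helper NLRs, which act as calcium-permeable channels in membranes. The EDS1-PAD4 pair works mainly with the ADR1 group, in the transcriptional reinforcement of defence and the making of salicylic acid, and also downstream of some receptors at the cell surface. The EDS1-SAG101 pair works mainly with the NRG1 group, in host cell death. In leaves without infection the genes are kept at moderate levels, and EDS1 and PAD4 transcripts accumulate when salicylic acid does.

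On chromosome 3 the EDS1 and EDS1B genes lie in tandem on the minus strand with 138 bases between them. On chromosome 5, NRG1.1 and NRG1.2 lie in tandem on the minus strand with 171 bases between them. Coding sequences of EDS1 and EDS1B were identical at 82.0% of aligned positions, and those of NRG1.1 and NRG1.2 at 77.9%. The start of the coding sequence is shown for EDS1 (chr3:17757603-17757692) and EDS1B (chr3:17755056-17755145), both in exon 1 on the minus strand (RefSeq, TAIR10.1), because it shows how reads of the copies can be told apart. Capitals mark the 15 of 90 positions at which they differ.
EDS1: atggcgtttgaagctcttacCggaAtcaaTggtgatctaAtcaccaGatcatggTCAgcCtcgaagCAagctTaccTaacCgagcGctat
EDS1B: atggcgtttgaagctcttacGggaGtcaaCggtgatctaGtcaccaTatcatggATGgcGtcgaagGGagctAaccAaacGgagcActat

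The longest coding stretch that EDS1 and EDS1B share without a difference has 44 bases (chr3:17757127-17757170 in EDS1 and chr3:17754576-17754619 in EDS1B, exon 2 of each, minus strand). That of NRG1.1 and NRG1.2 has 79 bases (chr5:26715550-26715628 and chr5:26718957-26719035, exon 5 of each, minus strand). Both are shorter than a read of 150 bases, and they are shown because they are where reads of the copies are hardest to assign.
EDS1 and EDS1B, shared: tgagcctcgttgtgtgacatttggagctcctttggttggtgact
NRG1.1 and NRG1.2, shared: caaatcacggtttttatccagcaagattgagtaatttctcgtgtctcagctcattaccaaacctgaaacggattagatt

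Of the stretches of 31 bases in the transcripts, EDS1 shared 3.61% and EDS1B 3.61% with the other copy. For NRG1.1 the share was 6.23% and for NRG1.2 it was 6.41%. No member shared a stretch of 100 bases with another gene on the same strand. The estimated counts of EDS1 and EDS1B were whole numbers in both libraries, while those of NRG1.1 and NRG1.2 were fractional in both, so part of their reads was divided between them. EDS1B overlaps AT3G48070 on the opposite strand by 503 bases, and AT3G48070 was at 16.04 FPKM (wild type) and 18.4 FPKM (C3A). ADR1-L1 overlaps AT4G33310 on the opposite strand by 261 bases, and that gene was at 34.5 and 39.7 FPKM. It also overlaps AT4G33290 (0.19 and 0.39 FPKM) by 410 bases on the opposite strand. The noncoding gene AT4G08785, without a level in either library, overlaps ADR1-L1 there by 1944 bases. Use of strand in counting was not given, so reads from such overlaps are uncertain.

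The wild type library held 11937705 estimated counts and the C3A library 12001808. The unit of level below is FPKM, the estimated count scaled by gene length and by the size of the library. The PBL19 gene itself stood at 6.68 FPKM in wild type plants against 466 FPKM in the C3A plants, and reads of the transgene and the native gene are not separated. All 5 markers of rosette leaves were abundant, summing to 44125 FPKM (wild type) and 28446 FPKM (C3A). The 4 root markers, not expected in rosettes, summed to 38.6 and 13.8 FPKM, and all of them were lower in the C3A library. Whether the libraries held differing amounts of root tissue was not tested. Of 4 flower markers, AP1 and AP3 were unlisted in both libraries and the other two were at most at 0.27 FPKM. The part of the difference in leaf and root markers in the results below was not tested. In whole rosettes, more cells expressing a gene and more RNA per cell cannot be told apart.

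In the C3A library 7 of the 9 genes were at least 2-fold higher on the scale of FPKM + 1. NRG1.2 lay between 1 and 2-fold, and NRG1.1 did not differ beyond counting error. None was at least 2-fold lower. In gene-wise pairs of FPKM values, the wild type comes first. Among all 19527 genes with at least 1 FPKM in either library, 7.89% were at least 2-fold higher and 2.85% at least 2-fold lower. The log2 ratio was above 0 for 9 of 9 members and for 61.7% of all genes compared. The median log2 ratio of the 9 genes was 1.59, against 0.14 for all genes compared. Higher genes made up 73.5% of all genes past 2-fold as deposited, and 61.9% when the C3A values were divided by the median FPKM ratio (1.11) of the genes with at least 1 FPKM in both libraries, a step called the rescaling below. After that rescaling the count for the members was again 7 of 9, with a median of 1.46. With 1 library per genotype there is no replicate check, so no test between genotypes was made. Intervals given below are 95% counting intervals. They cover counting error only, since the reads carry no molecular identifiers and cannot be counted as single molecules.

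**Figure D1:**
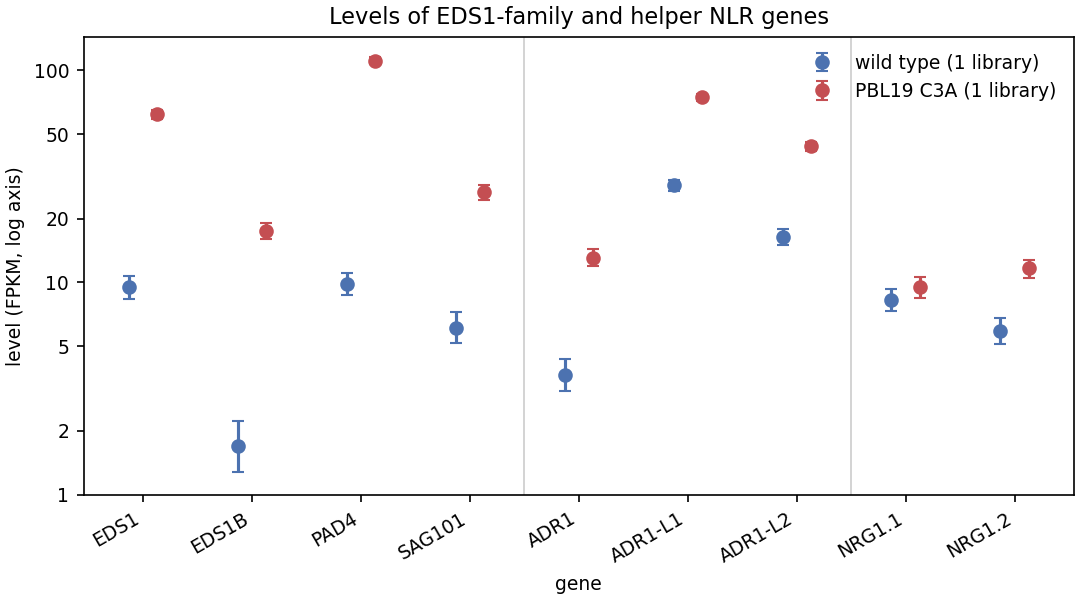
Level of each gene in FPKM (log axis) in the wild type library (blue) and the PBL19 C3A library (red), 1 library each, with exact Poisson 95% counting intervals; grey lines separate the EDS1 family, the ADR1 group and the NRG1 group. The intervals of the libraries overlap for NRG1.1, at 8.25 and 9.48 FPKM. They cover counting error only, and how many of all genes have intervals apart was not computed.

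PAD4 (AT3G52430), the partner through which EDS1 acts on salicylic acid, had the largest difference of the 9 genes. It was at 9.85 FPKM (268 counts) in the wild type and at 111 FPKM (3030 counts) in the C3A library, a ratio of 11.2 (9.92 to 12.8). Among listed genes its level moved from the 57.7th to the 95.7th percentile, and by log2 ratio it was at place 155 of 19527. The gene has 2 exons at chr3:19431095-19434450 on the plus strand, overlaps no annotated gene and shares no stretch of 31 bases with another transcript.

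EDS1 (AT3G48090), the common subunit of both pairs, was at 9.51 FPKM (250 counts) in the wild type and at 62.1 FPKM (1628 counts) in the C3A library. The ratio was 6.53 (5.71 to 7.49), at place 271. Its tandem copy EDS1B (AT3G48080) was the lowest member in the wild type, at 1.70 FPKM (53 counts), and was at 17.5 FPKM (548 counts) in the C3A library. The ratio of EDS1B was 10.3 (7.76 to 13.9), at place 233. Within the summed level of both copies EDS1B made up 15.2% of the wild type sum and 22.0% of the C3A sum, and its fold was 1.58 times that of EDS1 (1.15 to 2.20).

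SAG101 (AT5G14930), the partner of EDS1 in the cell death branch, was at 6.13 FPKM (141.98 counts) in the wild type and at 26.6 FPKM (534 counts) in the C3A library. The ratio of 4.33 (3.59 to 5.25) was the smallest of the EDS1 family. The deposited gene length of SAG101 was 1925 bases in the wild type and 1668 bases in the C3A library. Its 3 listed transcripts have 620, 2082 and 1526 bases in the reference, and the C3A length lies nearer to the last of these. The length enters the FPKM, and the ratio of the shares of counts, which leaves it out, was 3.74. For the other genes with several transcripts the deposited lengths differed less, at 2182 and 2164 bases for EDS1, 3194 and 3161 bases for ADR1-L1, and 2714 and 2677 bases for NRG1.1.

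The ADR1 group, the helper NLRs that act with EDS1 and PAD4, was at least 2-fold higher in all 3 genes. ADR1-L1 (AT4G33300) was at 28.8 FPKM (1114 counts) in the wild type and at 74.6 FPKM (2873 counts) in the C3A library, a ratio of 2.59 (2.42 to 2.78). ADR1-L2 (AT5G04720) was at 16.4 FPKM (562 counts) and 43.9 FPKM (1514 counts), a ratio of 2.68 (2.43 to 2.96). ADR1 (AT1G33560), the least abundant of the group, was at 3.67 FPKM (130 counts) and 13.1 FPKM (467 counts), a ratio of 3.57 (2.93 to 4.37). The folds of ADR1-L1 and ADR1-L2 did not differ beyond counting error, with a quotient of 1.03 (0.916 to 1.17). That of ADR1 exceeded the fold of ADR1-L2 by a factor of 1.33 (1.07 to 1.67) and that of ADR1-L1 by 1.38 (1.12 to 1.71). By log2 ratio the group stood at places 652 to 897 of 19527.

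The NRG1 group, the helper NLRs that act with EDS1 and SAG101, did not reach 2-fold. NRG1.1 (AT5G66900) was at 8.25 FPKM (270.84 counts) in the wild type and at 9.48 FPKM (308.8 counts) in the C3A library. Its ratio of 1.15 had an interval that held 1 (0.973 to 1.36), and with the rescaling it was 1.04 (0.877 to 1.22). NRG1.2 (AT5G66910) was at 5.93 FPKM (208.16 counts) and 11.7 FPKM (411.2 counts). Its ratio was 1.96 (1.66 to 2.33) as deposited and 1.77 (1.496 to 2.104) with the rescaling. The fold of NRG1.2 was 1.71 times that of its tandem copy (1.34 to 2.17), although reads of these genes are partly divided between them.

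**Figure D2:**
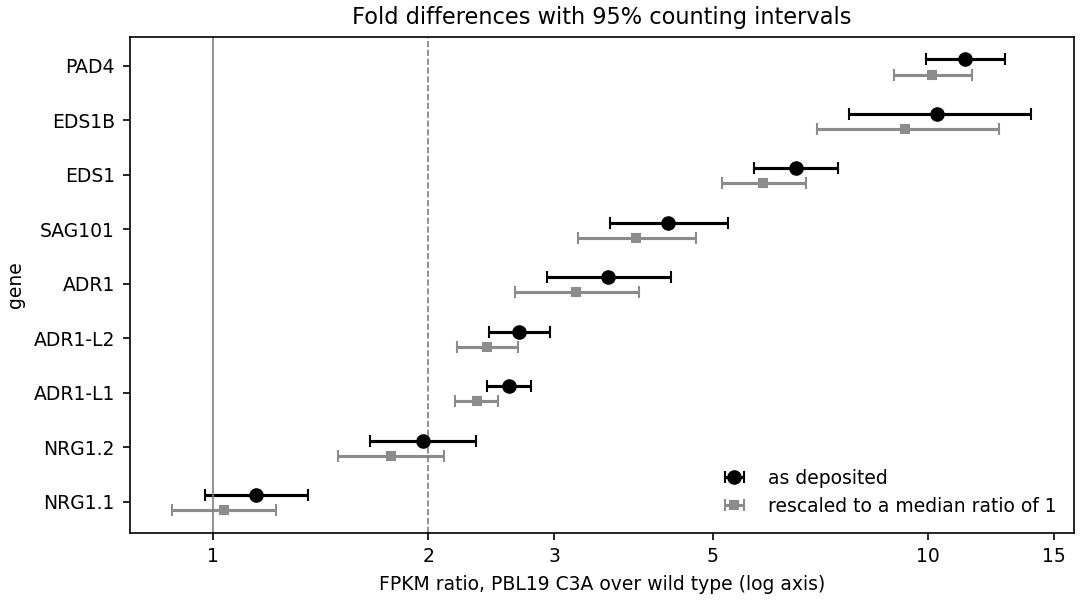
Ratio of FPKM, PBL19 C3A over wild type (log axis), for each gene with its 95% counting interval, as deposited (black circles) and rescaled to a median ratio of 1 over all genes (grey squares); the solid line marks 1 and the dashed line 2. PAD4 at 11.2 and NRG1.1 at 1.15 are the ends of the range, and the intervals of all EDS1-family and ADR1-group genes lie above 2 on both scales.

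The folds of the 9 genes ranged from 1.15 for NRG1.1 to 11.2 for PAD4. Quotients of folds were taken for all 36 pairs, without adjustment for the number of pairs. Their intervals cover counting error only. Pairs of other genes were not compared in this way, so a spread of folds particular to these genes was not tested. The interval of the quotient held 1 for PAD4 and EDS1B, for SAG101 and ADR1, and for ADR1-L2 and ADR1-L1. PAD4 exceeded SAG101 in fold by a factor of 2.597 (2.06 to 3.26), and SAG101 exceeded NRG1.1 by 3.77 (2.92 to 4.86). Quotients with SAG101 also depend on its deposited length, which differed between the libraries (1925 and 1668 bases) and is not covered by the intervals. ADR1 exceeded NRG1.1 by 3.11 (2.39 to 4.04), and the smallest difference between the helper groups was that of ADR1-L1 over NRG1.2, at 1.32 (1.095 to 1.59).

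The proportions among transcripts of the node differed between the libraries accordingly. The level of PAD4 was 1.61 times that of SAG101 in the wild type and 4.17 times in the C3A library. Summed EDS1 and EDS1B were at 1.14 times the level of PAD4 in the wild type and at 0.718 times in the C3A library. The ADR1 group summed to 48.8 FPKM (wild type) and 132 FPKM (C3A), and the NRG1 group at 14.2 and 21.1 FPKM. The ADR1 group was therefore at 3.44 times the level of the NRG1 group in the wild type and at 6.22 times in the C3A library. Of the summed level of the 5 helper genes, ADR1-L1 alone held 45.7% and 48.9%.

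The order of the levels changed as well. In the wild type, ADR1-L1 and ADR1-L2 were highest and apart from all others. PAD4, EDS1 and NRG1.1 followed, and neighbours among these 3 did not differ beyond counting error. SAG101 and NRG1.2 also had overlapping intervals, and ADR1 and EDS1B were lowest. In the C3A library the order was PAD4, ADR1-L1, EDS1, ADR1-L2, SAG101 and EDS1B, each apart from the next. ADR1, NRG1.2 and NRG1.1 came last, and neighbours among them overlapped. NRG1.1 thus moved from place 5 to place 9, while its level differed little.

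**Figure D3:**
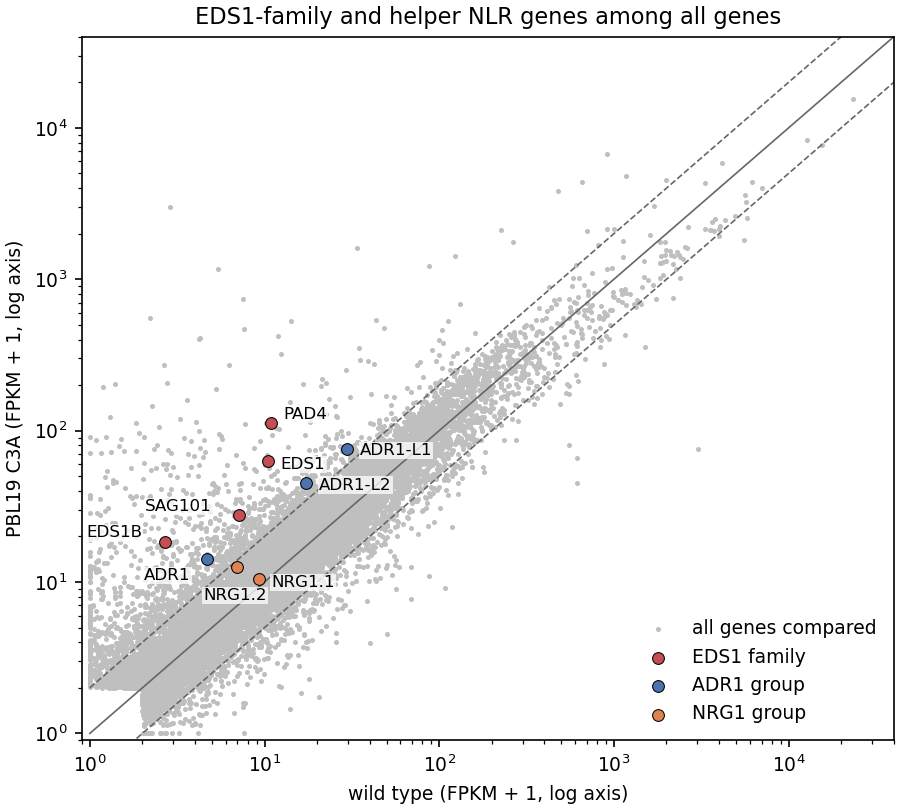
Each gene with at least 1 FPKM in either library by its level in the wild type (x) and the PBL19 C3A library (y), as FPKM + 1 on log axes; the solid line marks equal values and the dashed lines 2-fold. The EDS1 family (red) and ADR1 group (blue) lie above the upper dashed line, and NRG1.1 and NRG1.2 (orange) lie between the lines. By log2 ratio NRG1.1 was at place 9141 of the 19527 genes and NRG1.2 at place 1923.

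The remaining helper NLR genes were barely detected. ADR1-L3 was unlisted in both libraries. NRG1.3, a truncated gene beside NRG1.1 that can counteract the full-length NRG1 proteins, had no entry in the wild type table and was at 0.69 FPKM (11 counts) in the C3A library. Against an assumed floor of 3 counts in the wild type library its ratio was 3.65, without an interval for the 11 counts. On the scale of FPKM + 1 its log2 ratio was 0.76, below 2-fold.

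Upstream of the node, most intracellular receptors were under 2-fold, with log2 ratios mostly above 0. Of 16 TIR-domain receptors whose signalling needs EDS1, 15 had at least 1 FPKM, 2 were at least 2-fold higher and none lower. Beside this and the following lists stand the shares of all genes compared: 7.89% at least 2-fold higher, 2.85% lower and 61.7% above 0. Of the 15, 14 lay above 0, and the median log2 ratio was 0.44 as deposited and 0.31 with the rescaling, against 0.14 and 0.01 for all genes compared. Those past 2-fold were CHS1 (1.81 and 9.38 FPKM) and SOC3 (1.6 and 6.94 FPKM), which overlap on opposite strands by 3193 bases. SNC1, a receptor whose gain of function gives autoimmunity that needs PAD4, was at 44.2 and 68.8 FPKM, with fractional counts. RPS4, which detects bacterial effectors together with RRS1, was at 7.49 and 11.4 FPKM, and RRS1 was at 5.5 and 6.10 FPKM. None of 6 coiled-coil receptors was past 2-fold, all 6 lay above 0, and their median was 0.57 as deposited and 0.43 with the rescaling. ZAR1, which forms a channel of its own, was at 50.7 and 84.1 FPKM, and RPS2 at 7.18 and 12.3 FPKM.

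Of 6 genes for the chaperones of NLR proteins and for NDR1, 3 were at least 2-fold higher and none lower, and the median was 0.93. The co-chaperone gene SGT1A was at 12.9 and 56.6 FPKM, while SGT1B, the copy with the main role in resistance, was at 70.7 and 119 FPKM. HSP90.1, the stress-inducible HSP90, was at 1.89 and 8.01 FPKM. NDR1, a membrane protein needed by several coiled-coil receptors, was at 9.01 and 20.8 FPKM, with log2 ratios of 1.12 before and 0.98 after the rescaling.

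Among 9 negative regulators of immunity that depends on EDS1 or PAD4, 3 were at least 2-fold higher, none was lower and the median was 0.60. NUDT7, a nudix hydrolase whose loss activates EDS1 signalling, was at 16.2 and 92.2 FPKM, a ratio of 5.71 (5.02 to 6.51). BON1, a copine that restrains SNC1, was at 5.82 and 32.2 FPKM, with fractional counts, and it overlaps AT5G61910 on the same strand. The ubiquitin ligase SAUL1 was at 5.97 and 13.6 FPKM, with log2 ratios of 1.07 before and 0.93 after the rescaling. The F-box protein gene CPR1 was at 22.8 and 20.6 FPKM, and the transcription factor gene CAMTA3 at 13.8 and 21.4 FPKM.

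The cell surface modules that act through EDS1, PAD4 and ADR1 had 3 of 6 genes at least 2-fold higher, none lower and a median of 1.14. They were the receptor RLP23 (0.46 and 77.9 FPKM, from 16 and 2698.4 counts), its adaptor kinase SOBIR1 (38.0 and 288 FPKM) and the cytoplasmic kinase PBL30 (7.57 and 25.0 FPKM). On the opposite strand RLP23 overlaps VAMP725, at most at 0.68 FPKM, by 6 bases. SOBIR1 overlaps RAP (11.3 and 38.8 FPKM) by 478 bases, also on the opposite strand. PBL31, which acts together with PBL30, was at 19.6 and 29.7 FPKM, and the shared co-receptor BAK1 at 20.7 and 33.9 FPKM. PBL31 and BAK1 overlap genes on the opposite strand as well, BAK1 by 78 bases.

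Downstream, all 10 genes fixed as outputs of the node were at least 2-fold higher, and their median log2 ratio was 3.70, or 4.31 with a pseudocount of 0.1 FPKM in place of 1. With the rescaling, 9 of them were. The exception was NPR1, a salicylic acid receptor, at 13.1 and 28.5 FPKM with log2 ratios of 1.07 and 0.92. PBS3, which conjugates isochorismate on the way to salicylic acid, was at 1.90 and 40.3 FPKM. The transcription factors CBP60g and SARD1, which switch on ICS1, were at 3.55 and 71.2 FPKM and at 3.49 and 85.9 FPKM. EDS5, the transporter that exports isochorismate from the chloroplast, was at 4.91 and 29.6 FPKM. On the opposite strand EDS5 overlaps AT4G39040 (62.2 and 65.8 FPKM) by 213 bases. SARD1 overlaps GIP2 (4.64 and 6.84 FPKM) by 640 bases, also on the opposite strand. The lists in these paragraphs were chosen with earlier results of these data known, so their counts are descriptions.

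**Figure D4:**
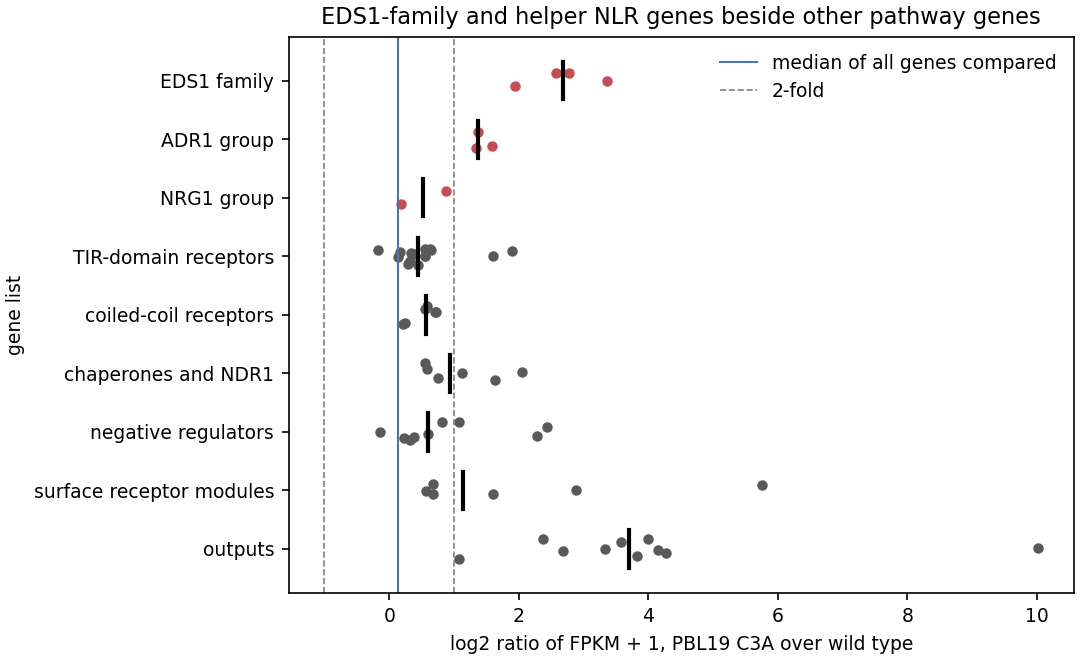
Log2 ratio of FPKM + 1, PBL19 C3A over wild type, for each gene with at least 1 FPKM in either library, by list; red points are EDS1-family and helper NLR genes, grey points other pathway genes, black bars list medians, the blue line the median of all genes (0.14) and dashed lines 2-fold. The outputs lie furthest to the right with a median of 3.70, the EDS1 family is at 2.68, and the receptor lists lie at 0.44 and 0.57.

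Position along the chromosome was compared next, since tandem copies and neighbours can move together. Of the 28 protein-coding genes nearest to the members (2 on each side), 20 had at least 1 FPKM, 2 were at least 2-fold higher and none lower, and the median log2 ratio was 0.20. This was near the values over all genes compared, with 7.89% higher, 2.85% lower and a median of 0.14. Both higher genes lie beside PAD4. SYP122, a syntaxin of defence-related secretion, was at 18.5 and 73.5 FPKM. OEP7, an envelope protein gene, was at 10.5 and 23.2 FPKM, with log2 ratios of 1.08 before and 0.94 after the rescaling. The genes around the EDS1 pair, from AT3G48060 to AT3G48110, ranged from -0.09 to 0.36 on the log2 scale. Those around the NRG1 pair with at least 1 FPKM ranged from -0.31 to 0.54.

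The 250 bases before each annotated gene start were read from the genome as promoter windows. Of the 9 windows, 4 ran into another annotated gene: that of EDS1B into EDS1, that of NRG1.1 into NRG1.2, that of SAG101 into AT5G14920 and that of ADR1-L1 into the noncoding gene AT4G08785. They were searched on both strands for the W-box forms TTGACC and TTGACT, to which WRKY factors bind, for TGACG, the core bound by TGA factors, and for CGCG, the core bound by CAMTA factors. These letters do not overlap one another in the members' windows. Either W-box form was present in 2 of the 9 members and in 28.4% of 27443 protein-coding genes. TGACG was present in NRG1.2 alone among the members (18.6% of all), and CGCG in ADR1-L2 alone (10.1% of all). The promoters with a W-box form are shown, from EDS1 (chr3:17758148-17758397, minus strand) and NRG1.2 (chr5:26721378-26721627, minus strand), with its letters in capitals on either strand.
EDS1: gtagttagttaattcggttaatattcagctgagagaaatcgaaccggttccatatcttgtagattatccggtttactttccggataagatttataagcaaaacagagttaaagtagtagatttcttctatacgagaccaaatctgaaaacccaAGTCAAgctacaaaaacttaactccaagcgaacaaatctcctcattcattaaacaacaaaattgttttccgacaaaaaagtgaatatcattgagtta
NRG1.2: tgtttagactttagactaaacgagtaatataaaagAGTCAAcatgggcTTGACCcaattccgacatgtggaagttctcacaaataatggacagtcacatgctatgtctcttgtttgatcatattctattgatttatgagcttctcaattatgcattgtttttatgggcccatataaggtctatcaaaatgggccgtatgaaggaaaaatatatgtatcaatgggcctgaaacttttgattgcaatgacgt

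The match in EDS1 is 97 to 92 bases before the gene start. NRG1.2 held 2 W-box matches. The windows of PAD4, EDS1B, SAG101, ADR1, ADR1-L1 and NRG1.1 held none of the motifs searched. Only 250 bases were read for each gene, and a part of these motifs in the differences of level was not tested.

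The genes nearest in level to a member in both libraries were found by the distance in log2(FPKM + 1) over the 2 libraries, among 23138 other genes. Nearest to PAD4 were the glutaredoxin gene GRXS13 (10.1 and 108 FPKM, distance 0.044), AT5G27065 (0.092) and the patatin-like lipase gene PLA2A (0.152). Nearest to EDS1 were the glycosyltransferase gene UGT87A2 (9.05 and 58.4 FPKM, distance 0.108), AT3G61280 (0.122) and AT1G65845 (0.144). Nearest to SAG101 were the arginase gene ARGAH2 (6.30 and 27.4 FPKM, distance 0.054), AT1G34750 (0.077) and AT1G11330 (0.088). Within a distance of 0.25 lay 4 genes for PAD4, 3 for EDS1 and 16 for SAG101.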

How the data were processed

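For each library the authors deposited 1 table, which holds an estimated count made from the reads for each gene, its length and its FPKM, per the file headers. Trimmomatic 0.36, HISAT and TAIR10 are named in the submitters' processing notes; the tool for the estimated counts and the use of strand are not given in the sources used here. The FPKM deposited by the authors was used without further scaling. Unlisted genes were set to 0. The difference is log2 of FPKM + 1, C3A over wild type, for genes with at least 1 FPKM in either library; it understates the difference of low genes. Single ratios are plain FPKM ratios with exact conditional (Clopper-Pearson) 95% intervals of the rounded counts, and intervals of levels are exact Poisson. Depth was 11937705 and 12001808 estimated counts. Coordinates, transcripts and sequences are RefSeq TAIR10.1; all 12083 wild type and 12261 C3A genes with a single transcript found there had the deposited length. Protein sequences were not used here, so identity is of coding bases. Members and gene lists were chosen with earlier results of these data known. All members, genes of these lists, flanking genes past 2-fold and the 3 genes nearest to EDS1, PAD4 and SAG101 could be named. Steps were tested on simulated data. Alternatives were a pseudocount of 0.1, other filters, a 1.5-fold threshold, a single length per gene, and scaling by the median ratio, without the 100 most abundant genes, or by TMM. Tools were python 3.11.15, pandas 2.3.3, numpy 2.4.6, scipy 1.17.1, matplotlib 3.10.9, R 4.3.3 and edgeR 4.0.16 (TMM factors only).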

Additional observations from a re-analysis of the deposited data

How the results depend on the processing

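With 1 library per genotype, no library could be left out, and variation between plants is not covered by any interval. The count of 7 of 9 members at least 2-fold higher was 7 with a pseudocount of 0.1, under each of the 3 rescalings and with 1 length per gene, and 8 at a 1.5-fold threshold; none was lower under these settings. The median log2 ratio of the members ranged from 1.46 to 1.81. Over all genes, the count at least 2-fold higher was 1541 as deposited, 2067 with a pseudocount of 0.1 and 3629 at 1.5-fold. It was 1216 with scaling by the median ratio, 1215 with TMM and 1389 without the 100 most abundant genes. The count lower was 557 as deposited, 911 with a pseudocount of 0.1, 839 without the 100 most abundant genes and 1738 at 1.5-fold. With scaling by the median ratio it was 749, and with TMM 768. All 45 alternative log2 ratios of members stayed above 0, and the lowest was 0.04, for NRG1.1 with TMM-scaled counts. The wild type level of EDS1B rests on 53 counts, with a log2 ratio of 2.78 that became 3.29 with a pseudocount of 0.1. No paired analysis was possible because each group has 1 sample.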
